A study of Bos taurus with 88 samples.

Results

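ENSBTAG00000046144 and ENSBTAG00000005828 are 2 of the 24616 genes counted in whole blood of newborn calves. Both were chosen by their values in calves of Charolais × Limousin cows (CL), where they were the only genes past the threshold when the samples taken at 168 h of age were compared with those taken at 72 h without pairing the samples of a calf. A gene was called when its edgeR adjusted p was under 0.05 and its expression differed by a fold change of at least 1.5. In each group of calves, both genes are followed from birth (0 h) over samples of 48, 72 and 168 h of age. Neither gene is given a symbol here, because the files list Ensembl identifiers and the gene table used here pairs none of them with a name, so what their products do cannot be said from these data.

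The samples came from 22 calves, and each calf was sampled at all 4 ages, which gave 88 libraries. The 8 H calves were Holstein dairy calves that were taken from the dam. They were fed a set share of their body weight as colostrum of their own dam, first by tube and then by teat feeder. Between the 72 and 168 h samples they moved to a group pen and milk replacer. Over that step, age and this move cannot be told apart in H calves. The 7 CL calves and the 7 LF calves were beef calves of Charolais × Limousin and of Limousin × Friesian cows, sired by Aberdeen Angus or Charolais bulls, and they suckled their dams on another farm. None of the groups was left without colostrum or treated with an agent, and breed, farm and way of feeding cannot be told apart between the H and the beef calves.

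A calf is born with almost no antibody in its blood, because the bovine placenta does not pass antibodies, and it takes them up from colostrum through a gut that closes to them soon after birth. Whole blood is a mixture of neutrophils, lymphocytes, monocytes, platelets and red cells, and its makeup changes in the days after birth as birth-related stress hormones fall and the immune system meets its first microbes. A level measured in whole blood is therefore a sum over these cells, and fewer cells of a type and less RNA per cell cannot be told apart. Markers of these cell types were not checked, since the list of markers used here is by symbol and the gene table used here pairs no symbol with an identifier of the files.

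Between 10023822 and 39304404 counts per library fell on genes, and neither gene lacked counts in any library. ENSBTAG00000046144 had 10 to 526 counts per library and ENSBTAG00000005828 had 62 to 1804. The 0, 48 and 72 h libraries of H calf 6 stood apart. Their 10 most abundant genes took 39 to 51.1% of the counts against 4.69 to 28.5% in the other 85 libraries, and their normalization factors were 0.401 to 0.582 against 0.777 to 1.204. In the 0 h library of LF calf 1, 73.9% of the reads were not counted on a gene, against 58.9% in the next highest library. Results that rest on these libraries are given with and without them where that changes a call.

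**Figure D1:**
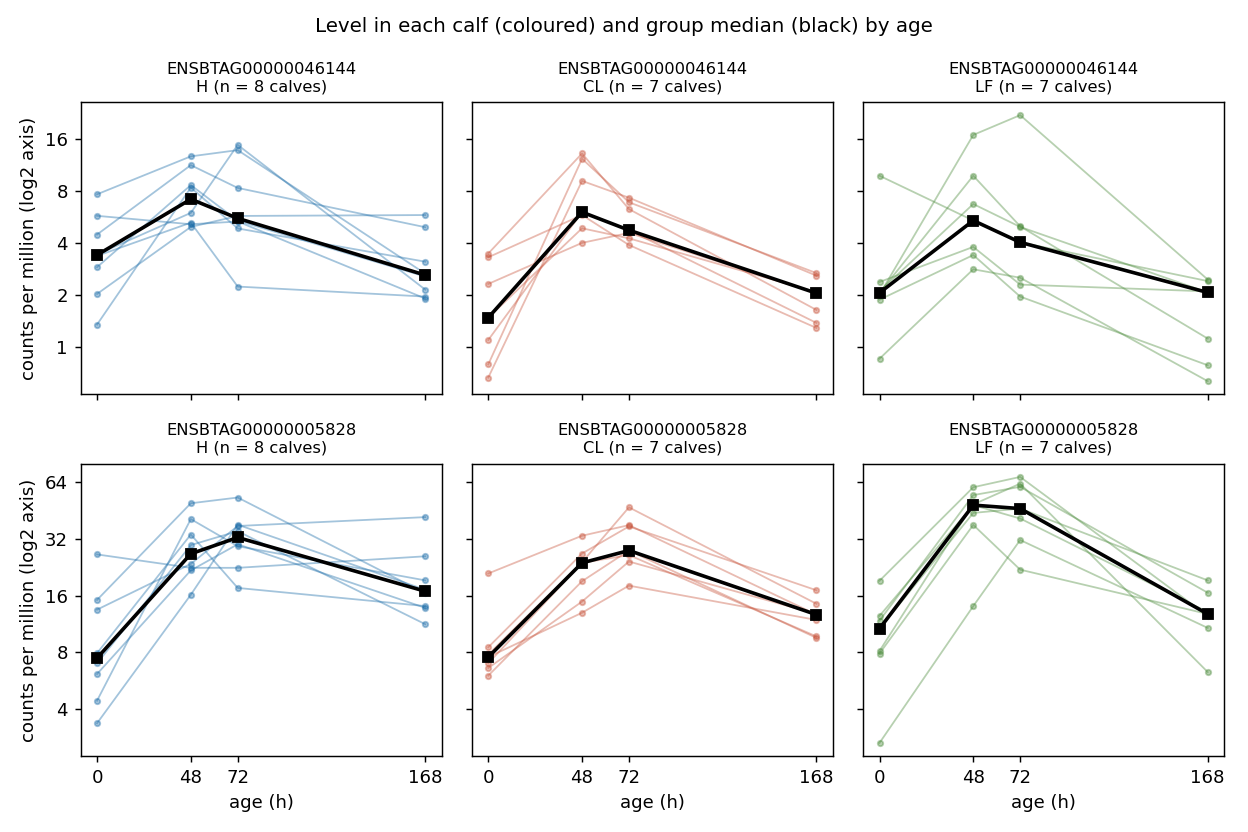
Level of each gene in CPM (counts scaled per 1000000 normalized counts of the library, log2 axis) against age in hours. Each coloured line is 1 calf, the black line joins the group medians, and the columns are H, CL and LF calves. Medians of ENSBTAG00000046144 were highest at 48 h in all 3 groups (7.18, 6.04 and 5.40 CPM), and every CL calf lay lower at 168 h than at 72 h for both genes. The CL samples at 72 and 168 h chose the genes.

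The comparison that chose the genes is given first, as a description without a test. In CL calves, ENSBTAG00000046144 ranged from 3.90 to 7.32 CPM at 72 h (median 4.75) and from 1.29 to 2.68 CPM at 168 h (median 2.05). The ages did not overlap, as all 7 samples at 168 h lay below the lowest sample at 72 h. ENSBTAG00000005828 ranged from 18.1 to 47.1 CPM at 72 h (median 27.8) and from 9.56 to 17.1 CPM at 168 h (median 12.7), again without overlap. For ENSBTAG00000046144 the coefficient of variation between calves at 72 and 168 h was 25.3 and 28.2% in CL, 59.3 and 46.3% in H and 117 and 47.4% in LF calves. For ENSBTAG00000005828 it was 31.7 and 21.0% in CL, 33 and 49.3% in H and 36.3 and 31.7% in LF calves. The CL samples at these ages chose the genes, so their spread is given as a description only.

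The fitted log2 fold changes in CL calves were -1.47 ± 0.21 (SE) for ENSBTAG00000046144 and -1.31 ± 0.19 for ENSBTAG00000005828, both with an edgeR adjusted p of 0.0469, just inside the threshold of 0.05. They made up 0.0157% of the 12770 genes tested. The genes next in order, just outside it, were ENSBTAG00000017405 and ENSBTAG00000047700 with an adjusted p of 0.103 each. Both were higher at 168 h, by 2.79 and 3.66 on the log2 scale. That the pair stood alone depended on the fit. Once the calf entered the fit as a block, 569 genes had a called fall at 168 h. Among them were ENSBTAG00000046144 (-1.48 ± 0.15) and ENSBTAG00000005828 (-1.28 ± 0.13). The paper, which used DESeq2 and names no block by calf, also reported many more genes than this pair for the same step. DESeq2 was not run on this CL comparison here.

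Whether the same fall occurred in calves that had no part in the choice was asked first in the LF calves. ENSBTAG00000046144 ranged from 1.96 to 22.0 CPM at 72 h (median 4.04) and from 0.635 to 2.46 CPM at 168 h (median 2.07). The ages overlapped, with 3 of 7 samples at 168 h below every sample at 72 h. Within calves the level was lower at 168 h in 7 of 7, with a median fall of 2.35-fold. The fit without pairing the samples of a calf gave a 3.74-fold fall (log2 fold change -1.90 ± 0.55 SE, edgeR adjusted p = 0.0235). With the calf as a block the log2 fold change was -1.54 ± 0.35 (edgeR adjusted p = 0.0218), again called. Of all 12738 genes tested in LF calves, 10.6% were called lower at 168 h, so a called fall at this step was common.

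In LF calves the size of the fall of ENSBTAG00000046144 leaned on LF calf 4, and its call was lost without LF calf 4 or LF calf 6. LF calf 4 had 22.0 CPM at 72 h, while the next highest calf had 5.00 CPM. Without LF calf 4 the log2 fold change was -1.21 with an edgeR adjusted p of 0.0522. Without LF calf 6 the fall was larger (-2.09) with an edgeR adjusted p of 0.0508. The call held when any other LF calf was left out.

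In LF calves the ages did not overlap for ENSBTAG00000005828. It ranged from 22.0 to 68.3 CPM at 72 h (median 46.4) and from 6.30 to 19.3 CPM at 168 h (median 12.8). All 7 samples at 168 h lay below all 7 at 72 h. The median fall within calves was 3.13-fold. Without pairing the samples of a calf, ENSBTAG00000005828 fell 3.66-fold (log2 fold change -1.87 ± 0.27 SE, edgeR adjusted p = 0.00114). The call held whichever LF calf was left out, with edgeR adjusted p from 0.00168 to 0.0109. Ordered from the largest fall, both ENSBTAG00000046144 and ENSBTAG00000005828 stood within the first 122 of the 12738 genes. How many other genes showed no overlap between these ages was not counted.

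In H calves both genes were lower at 168 h in most animals, and only ENSBTAG00000046144 was called. It ranged from 2.24 to 14.8 CPM at 72 h (median 5.56) and from 1.91 to 5.81 CPM at 168 h (median 2.61). The ages overlapped, and the level was lower at 168 h in 7 of 8 calves, the exception being H calf 4 with 5.74 CPM at 72 h and 5.81 CPM at 168 h. The median fall within calves was 1.86-fold. Without pairing the samples of a calf, ENSBTAG00000046144 fell 2.48-fold (log2 fold change -1.31 ± 0.36 SE, edgeR adjusted p = 0.0227). It stood 368th of 12541 genes ordered from the largest fall, and 5.81% of these genes were called lower.

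That call in H calves was lost without H calf 1 (log2 fold change -1.10, edgeR adjusted p = 0.0918) and without H calf 5 (-1.02, adjusted p = 0.0521), the animals with the highest levels of ENSBTAG00000046144 at 72 h (13.8 and 14.8 CPM). Without both samples of H calf 6 it was kept (-1.41, adjusted p = 0.03). H calves 1 and 3 have a 168 h sample whose RNA number lies outside the run of their other samples. In deviations from group means, these 168 h samples correlated with the 72 h samples of the same calves by 0.4 and 0.415 (mean of H calves 0.31). With the calf as a block and all H calves kept, the gene was called (-1.20 ± 0.33, edgeR adjusted p = 0.0383). With the block and H calves 1 and 3 left out, the log2 fold change was -1.0 with an edgeR adjusted p of 0.192.

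ENSBTAG00000005828 ranged in H calves from 17.6 to 53.1 CPM at 72 h (median 32.6) and from 11.3 to 41.8 CPM at 168 h (median 16.9). It was lower at 168 h in 6 of 8 calves. The exceptions were H calf 3, with 37.5 and 41.8 CPM at 72 and 168 h, and H calf 6, with 22.5 and 25.9 CPM. The log2 fold change was -0.76 ± 0.26 (SE, interval of 1.96 SE from -1.27 to -0.25), and with an edgeR adjusted p of 0.0573 the gene was not called. It was called by DESeq2 (adjusted p = 0.0268), with the calf as a block (-0.81 ± 0.23, edgeR adjusted p = 0.0467), without H calf 3 (-0.98, adjusted p = 0.0117) and without H calf 5 (-0.79, adjusted p = 0.0436). Without H calf 6 the log2 fold change was -0.88 (adjusted p = 0.0524). It was smallest without H calf 1 (-0.59, adjusted p = 0.193), and with the calf as a block and H calves 1 and 3 left out it was -0.82 and not called (adjusted p = 0.112).

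**Figure D2:**
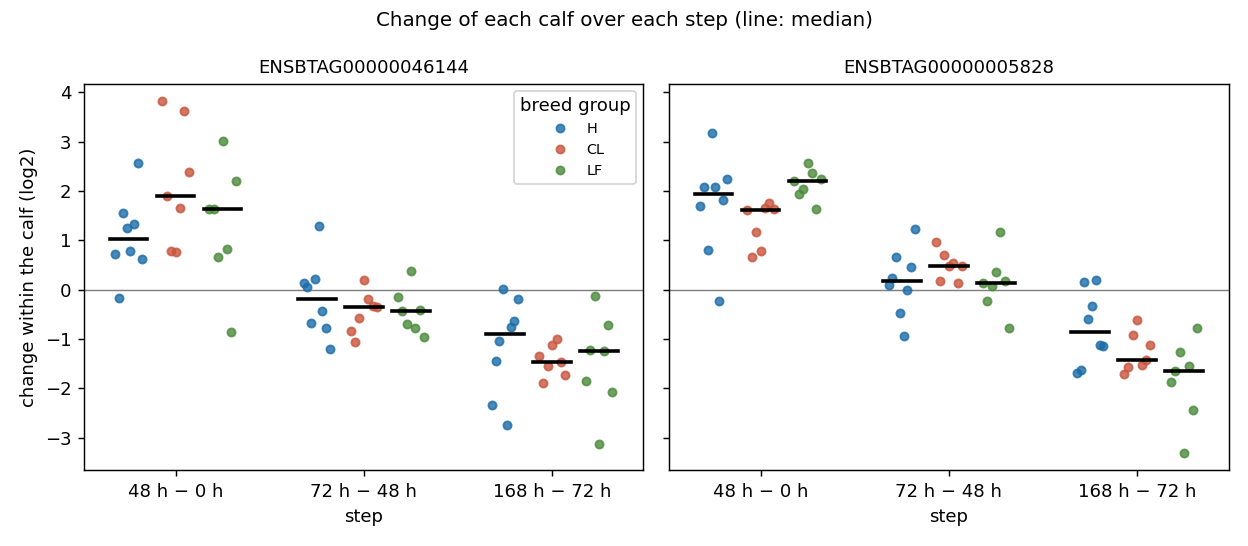
Change in log2 CPM within each calf over each step between neighbouring ages, by breed group. Points are calves and bars are medians. In the last step the medians for ENSBTAG00000046144 were -0.90 in H, -1.47 in CL and -1.23 in LF calves, and for ENSBTAG00000005828 -0.86, -1.43 and -1.65. The CL samples of this step chose the genes.

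Over the H and LF calves together, ENSBTAG00000046144 was lower at 168 h than at 72 h in 14 of 15 animals and ENSBTAG00000005828 in 13 of 15. A test of whether the change differed between LF and H calves called neither gene. For ENSBTAG00000046144 the change in LF calves minus that in H calves was -0.61 ± 0.65 on the log2 scale (interval -1.89 to 0.67, edgeR adjusted p = 0.775), and it was 0.10 without LF calf 4. For ENSBTAG00000005828 it was -1.12 ± 0.39 (interval -1.88 to -0.36, adjusted p = 0.631). In this test 0% of 13132 genes were called by edgeR and 0 genes by DESeq2, while 990 genes had an unadjusted p under 0.05. The single-gene interval for ENSBTAG00000005828 thus lay below 0, but the difference did not pass the correction over all genes.

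The late changes of the pair did not move together across animals to an extent these numbers could show. In 8 H calves the changes from 72 to 168 h of the 2 genes had a Pearson r of 0.151 (exact permutation p = 0.708, adjusted 0.708) and a Spearman rho of 0.119 (exact permutation p = 0.793, adjusted 0.793). In 7 LF calves r was 0.457 (exact permutation p = 0.302, adjusted 0.604) and rho 0.214 (exact permutation p = 0.662, adjusted 0.793), two-sided and adjusted over both groups. Leaving out the 2 calves farthest from the median change of ENSBTAG00000046144 gave an r of 0.083 in H and -0.776 in LF calves. In CL calves, whose changes chose the genes, r was 0.147.

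Where the fall starts was read from the step between 48 and 72 h. ENSBTAG00000046144 ranged from 4.96 to 12.7 CPM at 48 h in H (median 7.18), from 4.01 to 13.2 CPM in CL (median 6.04) and from 2.82 to 16.9 CPM in LF calves (median 5.40). In each group these values overlapped those at 72 h. At 72 h the level was lower than at 48 h in 4 of 8 H, 6 of 7 CL and 6 of 7 LF calves, with median changes of -0.19, -0.34 and -0.43 on the log2 scale.

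The step from 48 to 72 h was not called for ENSBTAG00000046144 in H calves (log2 fold change -0.03 ± 0.34, interval -0.70 to 0.64, edgeR adjusted p = 0.998) or in LF calves (-0.20 ± 0.56, interval -1.30 to 0.89, adjusted p = 0.966). Without H calf 6 the H value was 0.05. With the calf as a block the values were -0.18 ± 0.26 in H (edgeR adjusted p = 0.925) and -0.44 ± 0.17 in LF calves (adjusted p = 0.255), again not called. The highest level of a calf was at 48 h in 4 of 8 H, 6 of 7 CL and 5 of 7 LF calves. The CL counts use the 72 h samples that chose the gene and are descriptions only. Where the fall starts was therefore read from the H and LF calves, in which the step was not called. A step that was not called does not show that the level stayed unchanged.

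ENSBTAG00000005828 was followed over the same step. It ranged from 16.2 to 49.5 CPM at 48 h in H (median 26.7), from 13 to 33.3 CPM in CL (median 23.9) and from 14.1 to 60.2 CPM in LF calves (median 48.4), all overlapping the values at 72 h. At 72 h it was lower in 3 of 8 H, 0 of 7 CL and 2 of 7 LF calves. The log2 fold change was 0.15 ± 0.23 in H (interval -0.31 to 0.60, edgeR adjusted p = 0.983) and 0.10 ± 0.29 in LF calves (interval -0.46 to 0.66, adjusted p = 0.965). Its highest level came at 72 h in 4 of 8 H, 7 of 7 CL and 5 of 7 LF calves. The CL count uses the 72 h samples that chose the gene and is a description only.

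Between 48 and 72 h, edgeR called 0% of 12479 genes lower in H calves and 0% of 12781 in LF calves, and none higher. An unadjusted p under 0.05 was found for 788 genes in H and 1064 in LF calves, and DESeq2 called 11 genes in H and 120 in LF calves. The same step in CL calves uses the 72 h samples that chose the genes and was therefore not tested.

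Both genes were higher at 48 h than at birth in most calves. ENSBTAG00000046144 ranged at birth from 1.35 to 7.66 CPM in H (median 3.41), from 0.666 to 3.48 CPM in CL (median 1.48) and from 0.856 to 9.81 CPM in LF calves (median 2.06). From birth to 48 h it was higher in 7 of 8 H, 7 of 7 CL and 6 of 7 LF calves. Only the CL groups did not overlap, and there the level rose 4.11-fold (log2 fold change 2.04 ± 0.40, edgeR adjusted p = 0.00134). How many other genes showed no overlap at this step was not counted.

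In H calves the difference of ENSBTAG00000046144 between birth and 48 h was 0.99 ± 0.31 on the log2 scale (interval 0.38 to 1.61, edgeR adjusted p = 0.0530) and was not called, although DESeq2 (adjusted p = 0.0177) and the fit with the calf as a block (adjusted p = 0.00825) called it. In LF calves it was 1.18 ± 0.51 (interval 0.19 to 2.17, edgeR adjusted p = 0.114), and only the fit of all 88 samples called it (adjusted p = 0.0366). Here LF calf 6 had 9.81 CPM at birth, and the next highest LF calf had 2.38 CPM.

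ENSBTAG00000005828 ranged at birth from 3.37 to 26.5 CPM in H (median 7.47), from 6.03 to 21.0 CPM in CL (median 7.56) and from 2.65 to 19.2 CPM in LF calves (median 10.7). It was higher at 48 h in every calf except H calf 6. It rose 2.84-fold in H (log2 fold change 1.5 ± 0.37, edgeR adjusted p = 0.0160), 2.34-fold in CL (1.22 ± 0.29, adjusted p = 0.00428) and 4.18-fold in LF calves (2.06 ± 0.35, adjusted p = 0.00140). Genes called higher at 48 h made up 3.97% of those tested in H, 7.03% in CL and 7.37% in LF calves. The H call for ENSBTAG00000005828 was kept without H calf 6 (1.90, adjusted p = 0.00204) and lost without the samples whose label ends in R, a mark the labels do not explain (1.37, adjusted p = 0.0955).

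**Figure D3:**
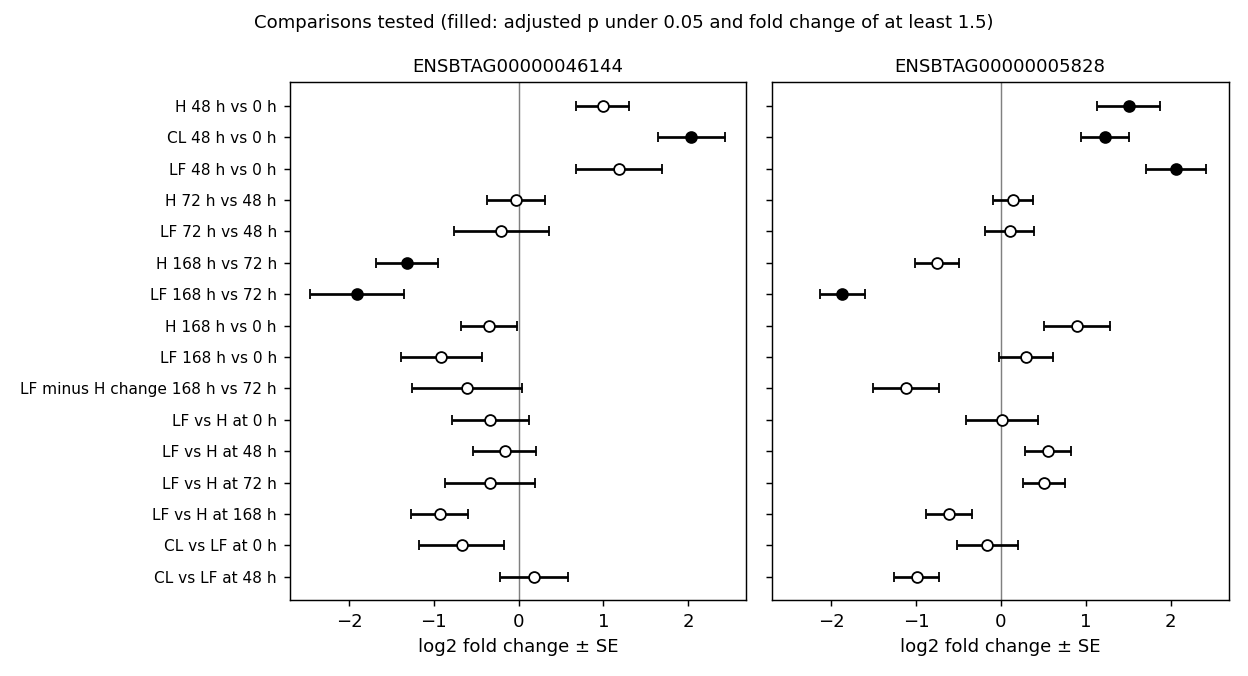
Log2 fold changes ± SE (edgeR) of both genes in the comparisons tested, where a value right of 0 is higher at the later age or in the group named first. Filled points were called. ENSBTAG00000005828 was called in all 3 groups from 0 to 48 h and in LF calves from 72 to 168 h, and neither gene was called between 48 and 72 h or between breed groups.

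Fitted to the 2 ages without pairing, edgeR called neither gene at 168 h against birth in H or LF calves. The genes were not tested against each other. ENSBTAG00000046144 was lower at 168 h than at birth in 5 of 8 H, 3 of 7 CL and 6 of 7 LF calves. The log2 fold change was -0.35 ± 0.33 in H (interval -0.99 to 0.29, edgeR adjusted p = 0.415) and -0.91 ± 0.48 in LF calves (interval -1.84 to 0.03, adjusted p = 0.176). ENSBTAG00000005828 was still higher than at birth in 7 of 8 H, 6 of 7 CL and 5 of 7 LF calves. Its log2 fold change was 0.90 ± 0.39 in H (interval 0.14 to 1.66, adjusted p = 0.0720) and 0.30 ± 0.32 in LF calves (interval -0.33 to 0.93, adjusted p = 0.537). The CL counts use the 168 h samples that chose the genes and are descriptions only.

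The difference between birth and 168 h in H calves depended on H calf 6, which had the highest birth level of ENSBTAG00000005828 in that group (26.5 CPM). Without it the log2 fold change was 1.20 with an edgeR adjusted p of 0.0138. The gene was also called with the calf as a block (1.04, adjusted p = 0.00862), in the fit of all 88 samples (0.92, adjusted p = 0.0126) and by DESeq2 (0.87, adjusted p = 0.0427). Genes called higher at 168 h than at birth made up 7.85% of those tested in H and 6.49% in LF calves.

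In order of group means, ENSBTAG00000046144 was highest at 48 h, then at 72 h, in every group. In H calves the means were 7.79 ± 2.98 CPM (SD, n = 8) at 48 h and 7.57 ± 4.48 at 72 h, and 3.87 ± 2.05 at birth and 3.14 ± 1.45 at 168 h. In CL calves they were 7.92 ± 3.69 (n = 7), 5.43 ± 1.38, 1.88 ± 1.17 and 1.96 ± 0.552 CPM at the same ages. In LF calves they were 6.99 ± 5.00 (n = 7), 6.12 ± 7.13, 3.01 ± 3.03 and 1.65 ± 0.784 CPM. The neighbours 48 and 72 h, and birth and 168 h, differed by less than the larger of their SDs in all 3 groups. Between 72 h and the lower ages the gap did not pass the larger SD in H or LF calves. The CL means at 72 and 168 h come from the samples that chose the gene and are descriptions only.

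ENSBTAG00000005828 had its highest mean at 72 h and its lowest at birth in every group. In H calves the means were 32.9 ± 10.8 CPM (SD, n = 8) at 72 h, followed by 29.8 ± 11.1 at 48 h, by 19.99 ± 9.86 at 168 h and by 10.5 ± 7.67 in newborns. In CL calves, in the same order of ages, they were 31.3 ± 9.90 (n = 7), 22.2 ± 7.04, 12.6 ± 2.64 and 9.22 ± 5.25 CPM. In LF calves they were 47.5 ± 17.2 (n = 7), 44 ± 15, 13 ± 4.13 and 10.4 ± 5.09 CPM. The neighbours 72 and 48 h, and 168 h and birth, differed by less than the larger of their SDs in all 3 groups. The gap between 48 and 168 h passed it in LF calves and not in H calves. The CL means at 72 and 168 h come from the samples that chose the gene and are descriptions only.

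Between breed groups at the same age neither gene was called. ENSBTAG00000046144 in LF minus H calves was -0.33 ± 0.45 on the log2 scale at birth (interval -1.22 to 0.55), -0.16 ± 0.37 at 48 h (-0.88 to 0.56), -0.34 ± 0.53 at 72 h (-1.38 to 0.71) and -0.93 ± 0.34 at 168 h (-1.60 to -0.26), with edgeR adjusted p of 0.617, 0.804, 0.748 and 0.0735. The difference at 168 h was called by DESeq2 (adjusted p = 0.0359). Genes called in either direction between LF and H calves made up 10.3% at birth, 3.39% at 48 h, 0.396% at 72 h and 6.83% at 168 h.

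ENSBTAG00000005828 in LF minus H calves was 0.01 ± 0.43 at birth (interval -0.82 to 0.85), 0.55 ± 0.27 at 48 h (0.02 to 1.09), 0.51 ± 0.25 at 72 h (0.03 to 1.00) and -0.61 ± 0.27 at 168 h (-1.15 to -0.07), with edgeR adjusted p of 0.983, 0.211, 0.281 and 0.136. The level was thus nominally higher in LF calves at 48 and 72 h and lower at 168 h, with none of these differences past the correction.

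The beef groups were compared with each other only at birth and 48 h, since the later CL samples chose the genes. ENSBTAG00000046144 in CL minus LF calves was -0.67 ± 0.50 at birth (interval -1.65 to 0.30, edgeR adjusted p = 0.674) and 0.18 ± 0.40 at 48 h (-0.60 to 0.96, adjusted p = 0.824). ENSBTAG00000005828 was -0.16 ± 0.35 at birth (-0.85 to 0.54, adjusted p = 0.908) and -0.99 ± 0.27 at 48 h (-1.51 to -0.47, adjusted p = 0.0905), where DESeq2 called it (adjusted p = 0.0110). By edgeR 0% of the genes were called between CL and LF calves at birth and 0% at 48 h. An unadjusted p under 0.05 was found for 1277 and 2908 genes, and DESeq2 called 9 and 557.

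**Figure D4:**
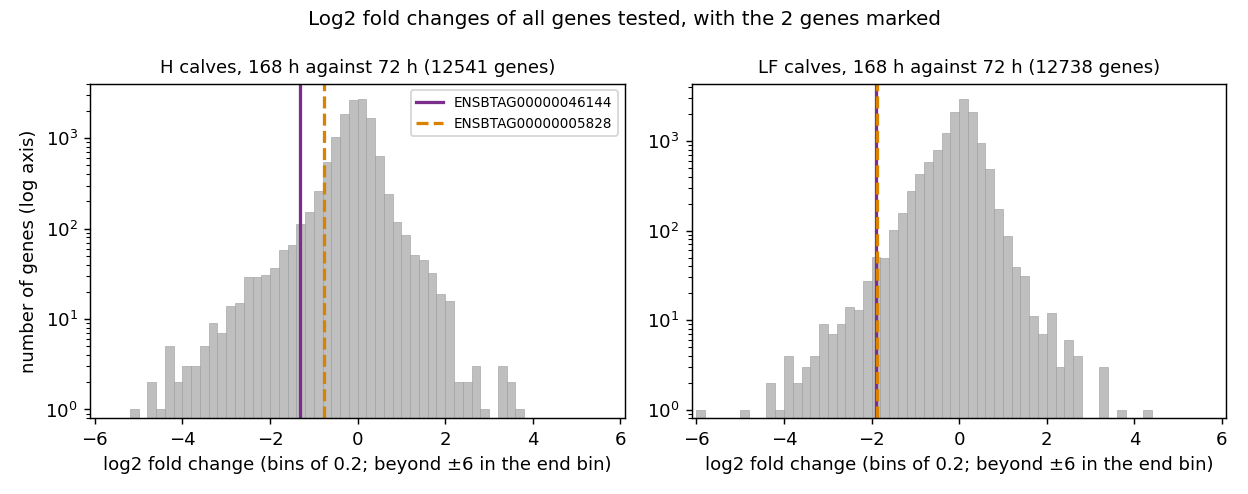
Number of genes (log axis) by log2 fold change between 168 h and 72 h in H (left) and LF calves (right), with the values of the 2 genes as vertical lines. In LF calves the lines nearly coincide at -1.90 and -1.87, and in H calves they lie apart at -1.31 and -0.76.

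The likeness of other genes to the pair was described over all 88 samples by Pearson's r of log2 CPM, among 13801 genes. The samples share calves and ages, so these r are given without a test. They include the CL samples at 72 and 168 h that chose the genes, so part of the likeness of the pair may follow from the choice. ENSBTAG00000046144 and ENSBTAG00000005828 had an r of 0.557 with each other, which was 0.257 after the mean of each breed and age was taken out. ENSBTAG00000046144 was most like ENSBTAG00000047740 (r = 0.879), and the next 4 genes had r from 0.717 to 0.764. ENSBTAG00000047740 also remained first with group means taken out (r = 0.825) and by Spearman's rho (0.890). Its mean was 7.91 ± 4.74 CPM at 48 h and 2.75 ± 1.14 CPM at 168 h in H calves (SD, n = 8). At the same ages it was 9.95 ± 6.74 and 1.91 ± 0.731 CPM in LF calves (n = 7). In CL calves it was 11.6 ± 6.76 and 2.65 ± 1.06 CPM (n = 7).

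ENSBTAG00000005828 had more close followers. Its most like gene was ENSBTAG00000021002 (r = 0.896), and the next 4 had r from 0.864 to 0.881. In all, 45 genes had an r over 0.8 with ENSBTAG00000005828 against 1 gene with ENSBTAG00000046144. None of the 5 genes most like ENSBTAG00000005828 (0 of 5) was among its 5 most like once group means were taken out, where the r of ENSBTAG00000021002 was 0.718. A gene with more counts is measured with less counting error, and ENSBTAG00000005828 had 48830 counts in all against 9666 for ENSBTAG00000046144. Whether this bears on the number of close followers was not tested.

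The genes also differed in how their reads fell on the strands. The libraries did not keep the strand, and over all genes 50.6% and 49.8% of the counts were found on either strand. ENSBTAG00000005828 had 49.8% and 50.2%. ENSBTAG00000046144 had 33.4% and 66.7%, and the first share ran from 6.67 to 55.9% between libraries. In each library the counts of ENSBTAG00000046144 on the 2 strands added up to its unstranded count to within 1. The cause of its uneven split was not tested. Counted on each strand alone, the log2 fold change of ENSBTAG00000046144 from 72 to 168 h was -1.45 and -1.23 in H calves (edgeR adjusted p = 0.0214 and 0.0321) and -1.66 and -2.04 in LF calves (adjusted p = 0.0491 and 0.0167).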

How the data were processed

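Whole blood was drawn into RNA-preserving tubes and single-end libraries were made from its mRNA. After trimming with cutadapt, STAR aligned the reads to cattle build UMD3.1, and the authors deposited raw counts per Ensembl gene, unstranded and per strand, without normalization. Reads that mapped to several places were not counted on genes. The unstranded count was used, and the 4 summary rows (30.6 to 73.9% of the reads) were left out.

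Both genes and all lists and tests were chosen with earlier results of these data known. edgeR 4.0.16 in R 4.3.3 (TMM, robust quasi-likelihood, its default filter on low counts, Benjamini-Hochberg over all genes tested) was fitted to the 2 groups compared, or to 4 for the difference between LF and H calves. These fits did not pair the samples of a calf, and fits with the calf as a block were alternatives. CPM used TMM library sizes, and log2 CPM a prior count of 2. Intervals are 1.96 SE, unadjusted. DESeq2 1.42.0, RLE, other filters, a fit of all samples and omission of calves or of the 9 samples marked R were alternatives. Fits without H calf 6 or LF calf 1 in further comparisons, without LF calf 4 in the difference between LF and H calves, and with stranded counts were added after the data were seen. Exact permutation tests used scipy 1.17.1.

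Calves were matched across ages by the tag number in the labels, which marks the animal. Deviations from group means correlated between the samples of a calf at neighbouring ages by 0.211 to 0.536 on average and by -0.090 to -0.035 between calves. From 72 to 168 h only 4 of 7 CL calves were best matched by their own sample. The samples of a group came from separate calves. Of 3828 pairs of libraries, 0 were identical.

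The genes named were the pair, the most like gene to each among 5 found, and the 2 genes just outside the threshold. Lists of cell type markers and pathways are by symbol and could not be applied. Coordinates, lengths and sequences were not used here, so levels are not compared between the genes. On simulated counts with 200 genes changed 2.5-fold, the H fit recovered 174 (6 false calls, 12541 genes), the LF fit 158 (5 false, 12738 genes) and the fit of their difference 127 (6 false, 13132 genes).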

Additional observations from a re-analysis of the deposited data

Results flagged for a closer look

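In 3 of the 24 groups of samples (2 genes, 3 breed groups and 4 ages), 1 sample lay far from the others by Dixon's test on CPM at the 95% level. For normally distributed values chance alone gives this in about 1 in 20 groups. Whether CPM values are so distributed was not tested, and the test was not run on log2 CPM. All 3 samples were the highest of their group. For ENSBTAG00000046144, LF calf 4 had 22.0 CPM at 72 h against 5.00 in the next highest calf, and LF calf 6 had 9.81 CPM at birth against 2.38. For ENSBTAG00000005828, CL calf 2 had 21.0 CPM at birth against 8.53 in the next highest. The difference between LF and H calves was not called for either gene, and no step moved one way in every calf of a group and the other way in every calf of another.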

How the results depend on the processing

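Of 282 values of the 2 genes under alternatives, 256 kept their direction and their side of the threshold, 14 newly passed it, 6 no longer passed it and 6 changed sign, and the cause was not tested. All values are log2 fold changes. With the calf as a block, ENSBTAG00000005828 in H calves was called at 168 h against 72 h (-0.81) and against birth (1.04), as was ENSBTAG00000046144 at 48 h against birth (1.05), and the block changed no other call. With the block and without H calves 1 and 3, neither ENSBTAG00000046144 (-1.0) nor ENSBTAG00000005828 (-0.82) was called at 168 h against 72 h, and ENSBTAG00000005828 was called against birth (1.11). DESeq2 newly called ENSBTAG00000005828 in H calves at 168 h against 72 h (-0.76) and birth (0.87) and in CL minus LF calves at 48 h (-1.0), and ENSBTAG00000046144 in H calves at 48 h against birth (0.99) and in LF minus H calves at 168 h (-0.93). The fit of all 88 samples called ENSBTAG00000046144 in LF calves at 48 h (1.19) and ENSBTAG00000005828 in H calves at 168 h against birth (0.92), and without the samples marked R the latter lost its H call at 48 h (1.37). ENSBTAG00000005828 in LF minus H calves at birth, near 0 to begin with, was -0.03 by DESeq2 and without the samples marked R, and -0.02 with RLE.

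Leaving out 1 calf at a time gave, at 168 h against 72 h, -1.56 to -1.02 for ENSBTAG00000046144 and -0.98 to -0.59 for ENSBTAG00000005828 in H calves, and -2.12 to -1.21 and -2.0 to -1.68 in LF calves. Calls of ENSBTAG00000046144 were lost without H calf 1 or 5 and without LF calf 4 or 6, and ENSBTAG00000005828 was called in H calves without calf 3 or 5. Without H calf 6, ENSBTAG00000046144 was 0.05 at 72 h against 48 h, and ENSBTAG00000005828 was 1.20 at 168 h against birth. For ENSBTAG00000046144 the change in LF minus H calves was -0.51 without H calf 6 and 0.10 without LF calf 4. For ENSBTAG00000005828 in LF minus H calves at birth, the values were 0.34 without H calf 6 and -0.01 without LF calf 1.

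The number of genes called moved by over 1.5 times in 22 of 141 fits. From 72 to 168 h it was 1151 in H calves, 668 without H calf 1, 728 without H calf 4 and 302 with the block and without H calves 1 and 3, and it was 1780 in LF calves, 936 without LF calf 4 and 954 without LF calf 6. From 48 to 72 h in LF calves it was 0, and 120 by DESeq2, 1.28% of genes in the fit of all samples and 1.23% with the block. In H calves it was 0 and 11 by DESeq2 from 48 to 72 h, and 868 from birth to 48 h, with 572 without the samples marked R and 1397 with the block. For LF against H calves it was 430 at 48 h (895 by DESeq2, 240 unfiltered, 1108 in the fit of all samples), 50 at 72 h (424 by DESeq2, 777 in the fit of all samples, 30 without H calf 6) and 870 at 168 h (531 without the samples marked R). For CL against LF calves it was 0 at birth (9 by DESeq2, 3 in the fit of all samples) and 0 at 48 h (557 and 542). The r between the 2 genes was 0.557, and 0.257 with group means taken out. Counts as low as 10 per library for ENSBTAG00000046144 leave more counting error in its values than in those of ENSBTAG00000005828, which had at least 62.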
